A study of Mus musculus with 4 samples.

Results

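The zinc finger genes of mouse chromosome 7 are protein-coding genes of GENCODE release M21 on that chromosome with a symbol of the form Zfp followed by a number, Zfp536 left out. There were 91 of them among 21938 protein-coding genes of chromosomes 1 to 19, X and Y. Another 302 genes with such a symbol lie on the other chromosomes, and 1932 further protein-coding genes lie on chromosome 7. The 91 genes are defined by name and position, and the set was chosen with earlier results of these data known.

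Foxr2 binding was measured by CUT&RUN, in which an antibody tethers a nuclease to a protein so that the DNA around it is cut free and sequenced. The antibody was against the V5 tag. The Foxr2 p53LOF neurosphere line was profiled in 2 replicates, as was a V5 control without the tag, each sample with 500000 cells cross-linked in 0.1% formaldehyde for 1 minute. The question for these genes is where the tagged protein was found along them, at the start, in the body or over the exon that codes the fingers.

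The Foxr2 p53LOF line came from a tumour made by in utero electroporation (IUE) of C57BL/6J embryos with a piggyBac vector for V5-tagged FOXR2 under the ubiquitous CAG promoter, and with a CRISPR guide against Trp53. The control cells came from a separate IUE model in C57BL/6J mice, and their genotype label is H3.3G34R. The methods speak of cell lines there, so the control replicates may come from different lines. Tag, oncogene and line therefore change together between the groups and cannot be told apart. The Foxr2 p53LOF group is 1 line, and the sources used here do not say that replicates were separate cultures, so the spread between them may be technical. The Foxr2 level in these cells is driven by a transgene.

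Most of these genes code for proteins with tandem C2H2 zinc fingers, short loops held by a zinc ion that read DNA bases one after another. Many also carry a KRAB domain, which recruits the corepressor TRIM28 and through it the histone methyltransferase SETDB1 and HP1 proteins, so that the bound DNA, often a transposable element, is packed into heterochromatin. Genes of this family arise by tandem duplication and lie in clusters, and their finger arrays are commonly coded by a single long last exon. In many cell types that exon itself carries heterochromatin marks while the promoter is active.

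The letters of a ZNF143 motif were common at the starts of these genes. ZNF143 is a zinc finger activator of housekeeping promoters, and its mouse gene, Zfp143, is itself one of the 91. The motif was searched as ACTACA and TCC with any 2 bases between them, on both strands of the RefSeq promoter windows (GRCm38.p6, 250 bases before to 50 after a start). Of the 91 genes, 83 had a window. The motif was present in 24 of the 83 (28.9%), against 532 of all 16522 protein-coding genes with a window (3.22%) and 36 of 241 Zfp genes of other chromosomes (14.9%). The lines that follow show it, in capitals and in the strand on which the letters read 5′ to 3′, for genes with high, middle and low Foxr2 fold enrichment, and give the position of the capitals.
Zfp146, chr7:30169860-30169870, plus strand: cgactttggACTACACTTCCcacaaggca
Zfp444, chr7:6172374-6172384, minus strand: cagctggaaACTACATCTCCcaagaaaca
Zfp566, chr7:30090576-30090586, minus strand: ctcggactgACTACATTTCCcagagggct
Zfp84, chr7:29768530-29768540, minus strand: ttatagtggACTACATTTCCcagaaggcg
Zfp260, chr7:30095048-30095058, minus strand: taactgtgaACTACATTTCCcagaagtct
Zfp180, chr7:24081875-24081885, minus strand: ctcaatggaACTACAATTCCcagaactct
Zfp14, chr7:30051400-30051410, minus strand: ccaccatggACTACATTTCCcacaggcct
Zfp420, chr7:29859920-29859930, plus strand: agccattggACTACATTTCCcagagccac
Zfp108, chr7:24254671-24254681, minus strand: ttttctgggACTACATTTCCcagaacgag
Zfp111, chr7:24208202-24208212, plus strand: tcttttgggACTACATTTCCcagaatgct

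The values behind these sequences are peaks, 1 list per library. The fold enrichment of a peak is a ratio, the fragments at its summit plus 1 over the background of the same library plus 1. The 2 Foxr2 p53LOF lists held 31909 and 38580 peaks and the control lists 308 and 124. To pass a fold of 6, a summit needed 13 fragments in Foxr2 p53LOF replicate 1, 18 in its replicate 2, and 16 and 9 in the controls. Intervals beside a fold are exact 95% Poisson intervals on the summit fragments and cover counting error only. A reproducible site is a stretch covered, in both Foxr2 p53LOF replicates, by peaks that overlap no control peak and pass the study's filters on fold, q and length. A gene has a promoter peak or site where one lies within 1 kb of a start of a protein-coding transcript.

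Foxr2 peaks were found at the starts of most of the 91 genes and of none in the controls. A reproducible promoter site was present at 58 genes, or 63.7%, where 39.4% of all protein-coding genes had one. A promoter peak in both replicates, before any filter, was present at 72 genes, or 79.1%, where 51.5% of all genes had one. At least 1 replicate had a promoter peak at 81 genes, or 89.0%, beside 56.4% of all genes.

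Replicate 1 had a promoter peak at 73 of the genes and replicate 2 at 80, and both control replicates had one at 0. Of all genes, 0.123% had a promoter peak in control replicate 1 and 0.0866% in control replicate 2, so a count of 0 among 91 genes is near that background. The difference in the mean count was 76.5 genes, with an exact two-sided permutation p of 0.333 over the 4 libraries, the smallest that 2 libraries against 2 can give. The control lists held 5 peaks and 1 peak on the whole of chromosome 7, and the nearest control summit lay 404463 bp from any of the 91 genes.

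Zfp genes of the other chromosomes had a promoter site in 172 of 302 cases (57%) and a peak in both replicates in 226 (74.8%). The other genes of chromosome 7 had a site in 567 of 1932 cases (29.3%) and a peak in both replicates in 739 (38.3%). The share among the chromosome 7 Zfp genes was thus closer to that of the Zfp genes elsewhere than to that of their neighbours. These shares are given as a description and without a test, since duplicated neighbours are not independent of each other. The filtered peaks of chromosome 7 had a median fold of 9.28 in replicate 1 and 9.86 in replicate 2, beside 8.84 and 9.86 over all chromosomes.

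**Figure D1:**
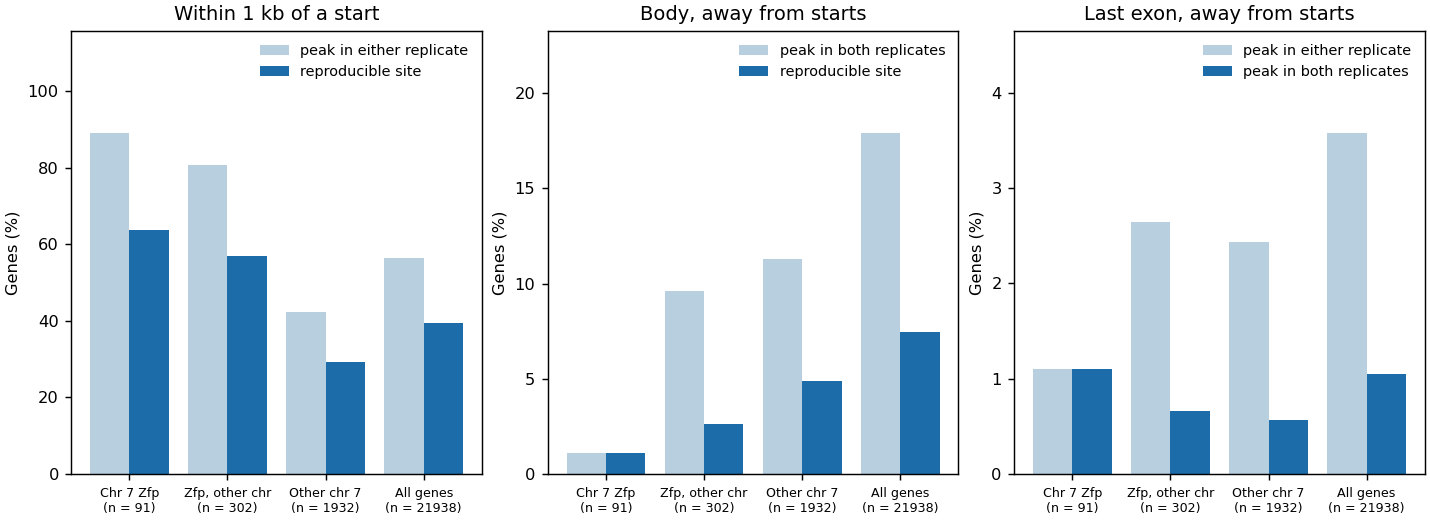
Share of genes (%) with peaks or reproducible sites of Foxr2 p53LOF within 1 kb of a start (left), in the body away from starts (middle) and with the summit in the last exon (right), for 4 gene sets, each with its number of genes and without error bars. The 91 Zfp genes of chromosome 7 stood at 63.7% for promoter sites and at 1.10% in the body and in the last exon.

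The height of the promoter sites was close to that of other genes. The lower of the 2 replicate folds had a median of 11.2 over the 58 genes, with a range from 6.19 to 38.0, beside a median of 10.2 over all 8642 genes with a promoter site and 9.28 over the Zfp genes of other chromosomes. Of the 58 genes, 30 stood above the median of all genes with a site and 6 reached the top 10% of them, which begins at a lower fold of 19.0. Replicate 2 was the higher for 42 of the 58 (72.4%), beside 75.1% of all genes with a site. Across the 58 genes Spearman's rho between the replicate folds was 0.822, and 0.826 across all genes with a site, a description over genes that share the same libraries. The ratio of the replicate 2 to the replicate 1 fold ran from 0.701 at Zfp60 to 2.18 at Zfp260, and the counting intervals overlapped for 56 of the 58. The exceptions were Zfp260 and Zfp146.

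**Figure D2:**
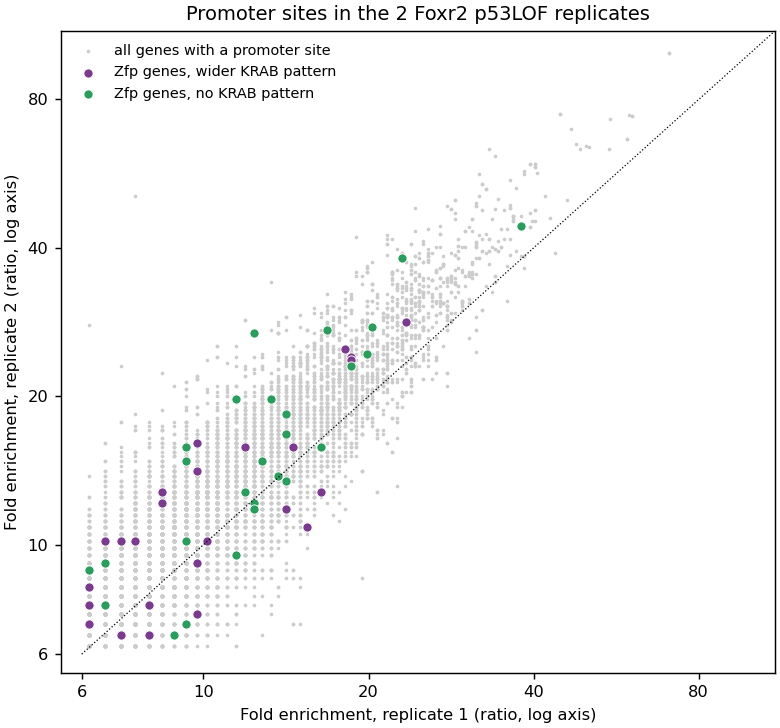
Fold enrichment of the promoter site in replicate 1 (x axis, ratio, log scale) and replicate 2 (y axis, ratio, log scale) for all genes with a site (grey) and for the 58 Zfp genes of chromosome 7, coloured by the wider KRAB pattern. Genes coloured as lacking the pattern may still code for KRAB proteins. The dotted line marks equal folds. The Zfp genes lie within the cloud of all genes, with Zfp524 at 38.0 and 44.4 the highest of them.

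Zfp524, a gene for a small protein with 4 fingers, had the highest promoter site of the 91. The site, chr7:5013915-5016316, gave a fold of 38.0 (30.4 to 46.9, 85 fragments) in replicate 1 and 44.4 (37.2 to 52.5, 134 fragments) in replicate 2. Its lower fold stood at the 99.6th percentile of all genes with a site. The summits lay 469 and 508 bp upstream of the nearest Zfp524 start. The same site covers start windows of Fiz1, another zinc finger gene, and of Gm44973, so it cannot be given to Zfp524 alone.

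Zfp27 and Zfp383 lie head to head and shared the next site, chr7:29905582-29909239, with a fold of 23.4 (17.6 to 30.6) in replicate 1 and 28.3 (22.6 to 34.9) in replicate 2. The summits lay 131 and 102 bp inside Zfp27, and 2116 and 2087 bp upstream of the Zfp383 start. The summits thus lay near the start of Zfp27, while the peak spans the starts of both genes. With the summit required within 1 kb of a start, 55 of the 91 genes had a site, where 36.7% of all genes had one.

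Zfp146, a protein almost wholly made of fingers, followed with a fold of 23.0 (17.2 to 30.1) in replicate 1 and 38.1 (31.5 to 45.7) in replicate 2 at chr7:30168626-30171055. Its replicate 2 fold was the second highest of the 91. The summit lay 197 bp downstream of the start in replicate 1 and 256 bp upstream in replicate 2, and the printed ZNF143 letters lay 335 and 118 bp from those summits.

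The 10 genes with the highest lower fold all lie between Zfp524 and Zfp146, chr7:5014415-30169750. Zfp444, which has 4 fingers, reached 20.3 in replicate 1 and 27.6 in replicate 2. Zfp428, with 1 finger by the pattern used, had 19.9 and 24.3. Zfp446 (18.6 and 23.0), Zfp566 (18.6 and 23.7), Zfp84 (18.6 and 24.0) and Zfp78 (18.1 and 25.0) lay close together. In all of these the replicate 2 fold was the higher, and no control library had a peak. Their printed ZNF143 letters lay 555 and 567 bp from the 2 summits at Zfp444, 150 and 236 bp at Zfp566, and 148 and 137 bp at Zfp84.

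**Figure D3:**
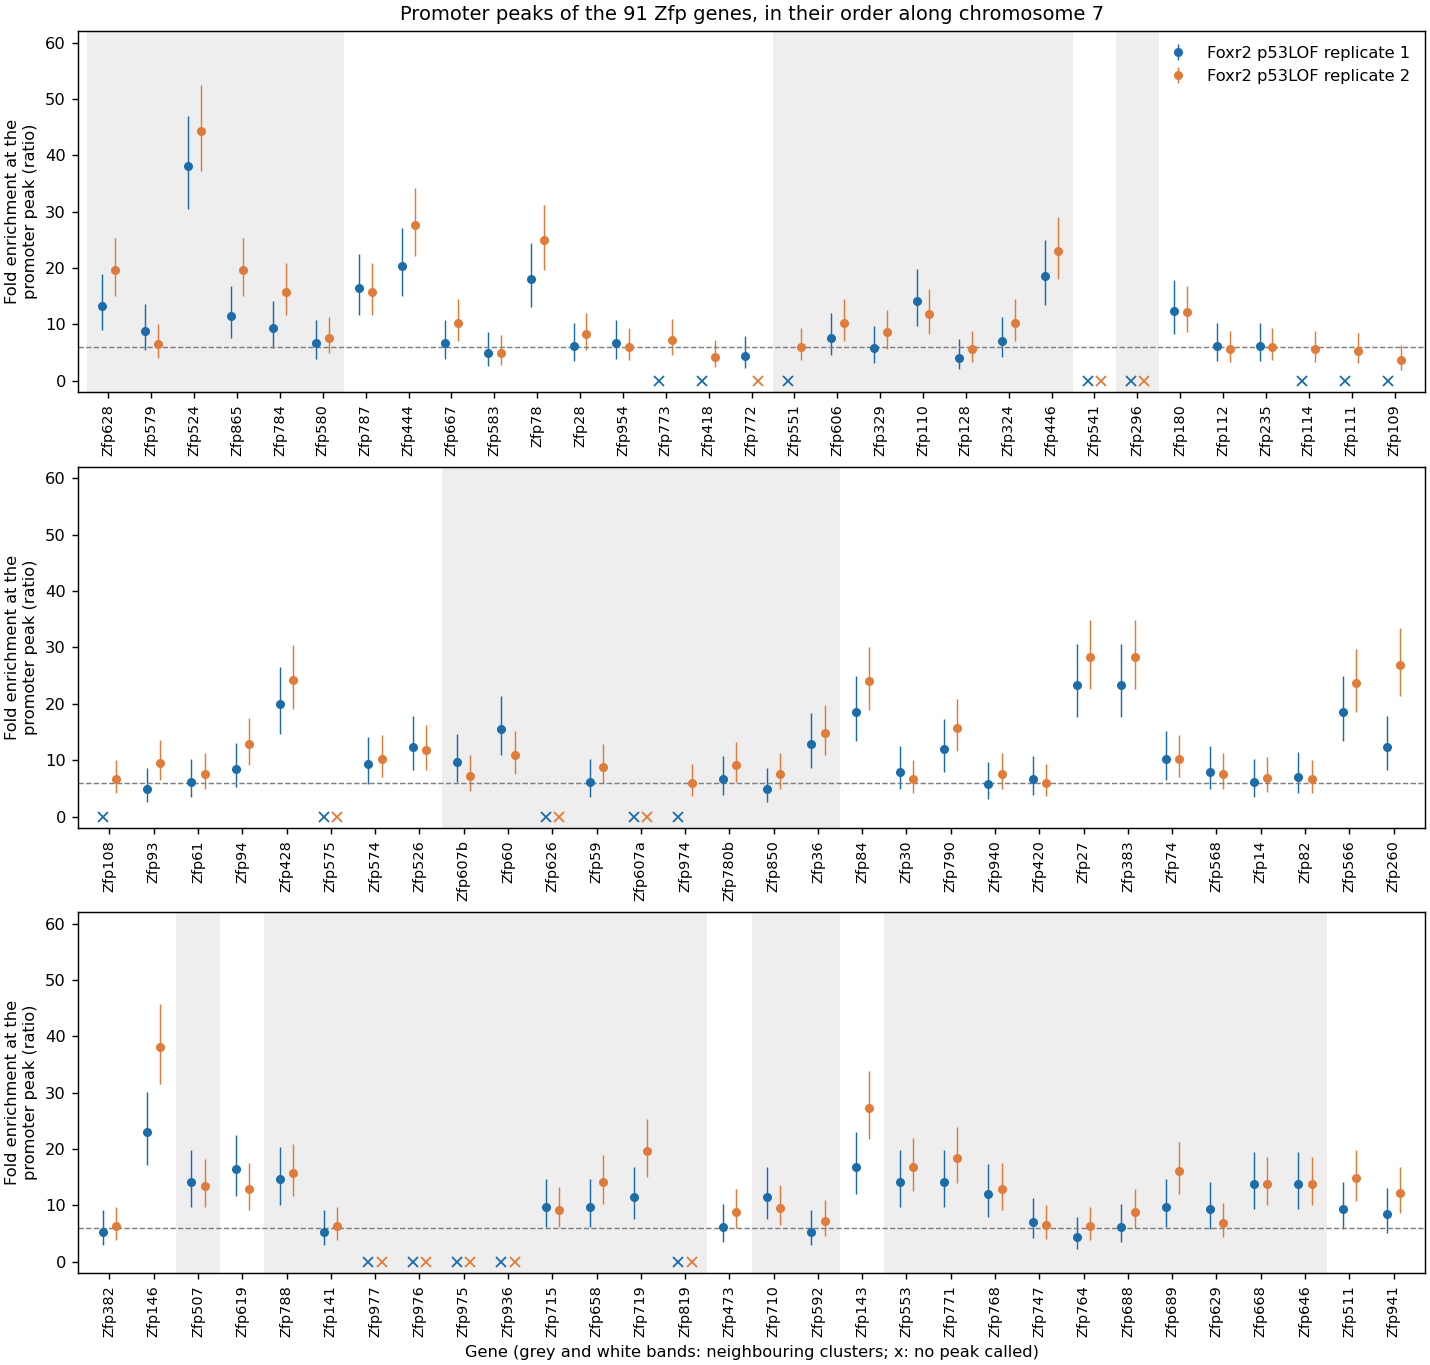
Fold enrichment (ratio) of the highest promoter peak of each of the 91 genes in both Foxr2 p53LOF replicates, in chromosome order, before filtering. Bars are 95% Poisson intervals on summit fragments, crosses mark genes with no peak in that replicate, the dashed line is the minimum fold of 6, and grey and white bands separate clusters. Gaps gather between Zfp977 and Zfp936 and between Zfp114 and Zfp108.

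Genes with a described function stood at all heights. Zfp143, the gene for the activator named above, had a site, chr7:110058480-110062856, with folds of 16.8 (12.0 to 23.0) and 27.3 (21.8 to 33.8). Zfp260, which codes for a transcriptional regulator known from the heart, had folds of 12.4 (8.30 to 17.8) and 26.9 (21.5 to 33.4), the highest ratio between replicates. Zfp628, known for a role in spermatid gene activation, had 13.3 and 19.7. Zfp36, which codes for tristetraprolin, differs from the rest in kind. It is an RNA-binding protein with CCCH fingers that speeds the decay of cytokine mRNAs, and it matched the C2H2 pattern 0 times. Its promoter site had folds of 12.8 and 14.8.

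Zfp568, a KRAB protein needed in early mouse development for silencing a placental Igf2 transcript, had folds of 7.95 (4.82 to 12.5) and 7.56 (4.86 to 11.3), at the 23.5th percentile of all genes with a site. Zfp710 had 11.5 and 9.53. Zfp646 shared a site with its head-to-head neighbour Zfp668, with folds of 13.7 and 13.8. Zfp473, which takes part in histone pre-mRNA processing, had 6.19 and 8.87, and its site also covers a start window of Vrk3. Zfp592 had peaks with folds of 5.30 and 7.23 and no reproducible site, since replicate 1 was under the minimum of 6.

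At the threshold the call turned on single fragments. The lowest lower fold with a site, 6.19 in replicate 1, was shared by 6 genes, which were Zfp14 (6.90 in replicate 2), Zfp61 (7.56), Zfp28 (8.21), and Zfp59, Zfp473 and Zfp688 (8.87 each). The 3 genes just below were Zfp420 (6.63 and 5.91), Zfp954 (6.63 and 5.91) and Zfp235 (6.19 and 5.91). For Zfp14 the interval ran from 3.50 to 10.3 in replicate 1, so genes on either side of the minimum did not differ beyond counting error. A minimum fold of 5 gave 64 genes with a site, where 42.8% of all genes then had one. A minimum of 10 gave 31, where 19.8% of all genes had one.

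Of the 33 genes without a site, 14 had a promoter peak in both replicates. These were Zfp583, Zfp954, Zfp329, Zfp128, Zfp112, Zfp235, Zfp93, Zfp850, Zfp940, Zfp420, Zfp382, Zfp141, Zfp592 and Zfp764. In 12 of them 1 replicate passed the fold of 6 and the other did not, and in the other two neither did. Replicate 1 alone had a peak at Zfp772, with a fold of 4.42. Replicate 2 alone had one at Zfp773, Zfp418, Zfp551, Zfp114, Zfp111, Zfp109, Zfp108 and Zfp974, with folds from 3.61 to 7.23. The remaining 10 genes had no promoter peak in any library: Zfp541, Zfp296, Zfp575, Zfp626, Zfp607a, Zfp977, Zfp976, Zfp975, Zfp936 and Zfp819. Zfp541 codes for a chromatin factor of male meiosis, and Zfp819 and Zfp296 are known from germ and pluripotent cells.

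The sequence around the start was less unique in genes without a peak. As a measure of how well reads could be placed, the 32-mers of the 2 kb around 1 start of each gene, that of the transcript with the longest coding sequence, were looked up in the assembled chromosomes, and the share that occurred once was taken. Its median was 98.3% for the 58 genes with a site, 96.5% for the 14 with a peak in both replicates and no site, 88.6% for the 8 with a peak in replicate 2 alone and 77.2% for the 10 without a peak. Of the 13 genes under 80%, 1 had a site (Zfp747, 50.5%), 3 had a peak in both replicates without a site, 4 had a peak in 1 replicate and 5 had none. At 3 genes with a peak, Zfp114, Zfp111 and Zfp790, the highest promoter peak lay wholly outside this window, at another start. At Zfp74 the replicate 1 peak, though not that of replicate 2, also lay outside this window. With the most unique window of any start in its place, a choice made after the data were seen, 9 genes stood under 80%, of which 1 had a site, 2 a peak in both replicates without a site, 1 a peak in 1 replicate and 5 no peak.

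The least unique windows were those of Zfp772 (32.6%), Zfp976 (48.6%), Zfp936 (50.3%), Zfp747 (50.5%), Zfp977 (54.2%) and Zfp626 (55.3%). Of these, Zfp976, Zfp936, Zfp977 and Zfp626 had no peak. Among the 78 genes at 80% or above, 57 had a site (73.1%) and 68 a peak in both replicates (87.2%), and 5 had no peak: Zfp541 (98.9%), Zfp296 (97.8%), Zfp575 (100%), Zfp607a (89.1%) and Zfp819 (96.9%). How reads with several matching places were treated is not given in the sources used here, and the part of repeated sequence in the missing peaks was not tested.

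An example of such a repeat is the ETS motif in the windows of Zfp936 and Zfp977. Both genes lie in the cluster from Zfp788 to Zfp819 and neither had a peak. The motif (CCGGAAG, in capitals) and the 10 bases on each side are the same in both, on opposite strands.
Zfp936, chr7:43177576-43177582, minus strand: aacatggcgcCCGGAAGcacccgcctc
Zfp977, chr7:42592558-42592564, plus strand: aacatggcgcCCGGAAGcacccgcctc

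**Figure D4:**
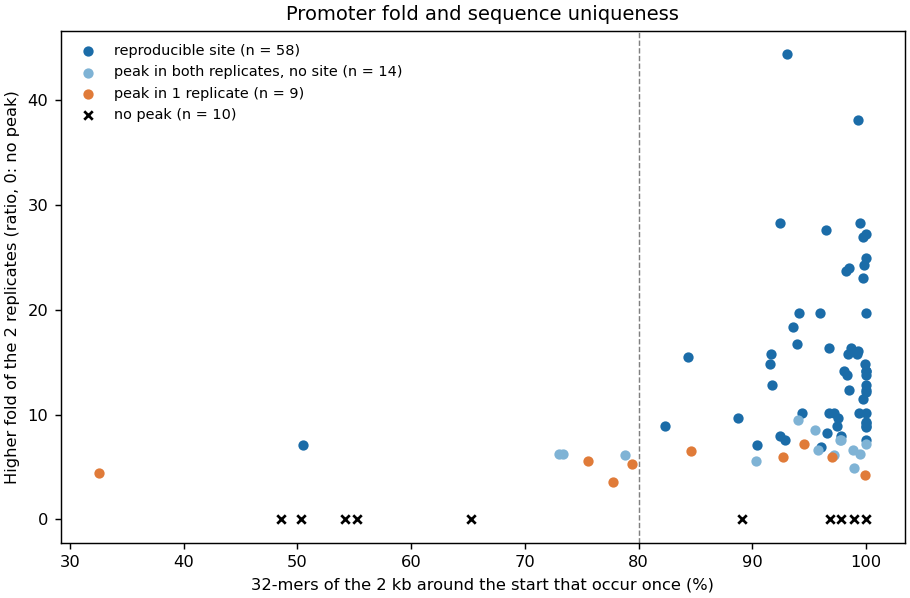
Share of 32-mers in the 2 kb around 1 start per gene that occur once in the assembled chromosomes (x axis, %) and the higher promoter fold of the 2 Foxr2 p53LOF replicates (y axis, ratio, 0 where no peak was called), 1 point per gene, by class of promoter peak. The dashed line marks 80%. Left of it lie 13 genes, of which 1 had a reproducible site.

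The promoter peaks were centred near the start. The summits lay within 250 bp of a start for 46 of 73 peaks in replicate 1 and for 55 of 80 in replicate 2, with a median distance of 195 and 155 bp. They lay downstream of the start in 44 and 44 cases. The median peak length was 1571 bp in replicate 1 and 1690 bp in replicate 2. Where both replicates had a peak, their summits were a median of 78 bp apart, and 37 of the 72 pairs lay within 100 bp. At reproducible sites the replicate 1 summit lay a median of 165 bp from the start in the 58 genes and 208 bp in all genes with a site.

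**Figure D5:**
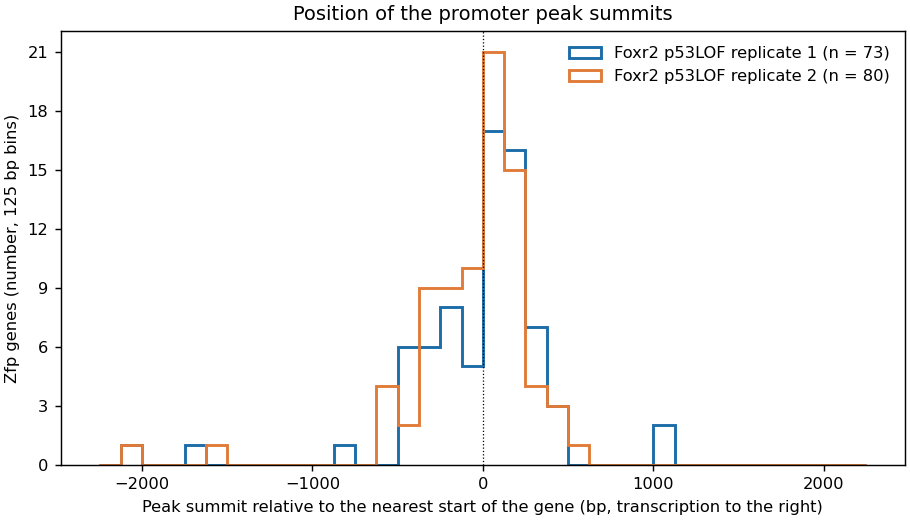
Position of the promoter peak summit relative to the nearest start of the gene (x axis, bp, transcription to the right) for the 73 peaks of replicate 1 and the 80 of replicate 2 (y axis, number of genes per bin). The largest bin of each replicate begins at the start itself.

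Along the chromosome the 91 genes form 16 runs in which neighbouring starts are at most 1 Mb apart. The runs differed in how many promoters held a site, where 39.4% of all genes had one. The run from Zfp84 to Zfp146 (chr7:29768552-30169750) is the largest, with 15 genes. All 15 had a promoter peak in both replicates and 12 had a site, with lower folds from 6.19 to 23.4 and a median of 12.2. It holds Zfp27, Zfp383, Zfp566, Zfp260 and Zfp146. Of its genes, 12 match the wider KRAB pattern described below.

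The run from Zfp553 to Zfp646 (chr7:127233061-127885996) had a site at 9 of 10 genes, with a median lower fold of 11.9, and the run from Zfp628 to Zfp580 (chr7:4915217-5053723) at 6 of 6, with a median of 10.4. Other runs had fewer sites, at a share near the 39.4% of all genes. These were that from Zfp180 to Zfp526 (chr7:24081924-25227507), with 6 of 14, and that from Zfp788 to Zfp819 (chr7:41633203-43618285), with 4 of 10. In the former, the neighbours Zfp114, Zfp111, Zfp109 and Zfp108 had peaks in replicate 2 alone. In the latter, 5 genes had no peak, all 10 match the wider KRAB pattern, and the median share of unique 32-mers at the start was 85.1%. The runs from Zfp787 to Zfp772, from Zfp551 to Zfp446 and from Zfp607b to Zfp36 had sites at 5 of 10, 4 of 7 and 5 of 9 genes.

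Within a run, neighbours ranged from no peak to a high one. In the run from Zfp788 to Zfp819, Zfp788 had folds of 14.6 and 15.8, Zfp719 of 11.5 and 19.7, Zfp658 of 9.72 and 14.1 and Zfp715 of 9.72 and 9.20, beside the 5 genes without a peak. All 4 of these promoters had at least 97.5% of 32-mers that occur once. Of the 5 without a peak, Zfp819 had 96.9% and the others 48.6% to 65.2%. In the run from Zfp553 to Zfp646, Zfp553 had folds of 14.1 and 16.8 and Zfp689 of 9.72 and 16.1, while Zfp747 had 7.07 and 6.57 and its neighbour Zfp764 had 4.42 and 6.24, without a site. Of the genes that stood alone, Zfp507 (14.1 and 13.5), Zfp619 (16.3 and 12.8), Zfp143 (16.8 and 27.3) and Zfp473 (6.19 and 8.87) had sites. Zfp541 and Zfp296 stood alone too and had no peak. Zfp619 codes for the protein with the most fingers.

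Some genes shared a peak with a neighbour. The 58 genes with a site rested on 56 distinct best sites, since Zfp27 shared its own with Zfp383 and Zfp668 with Zfp646. For another 7 genes the site also covered a start window of a gene outside the 91, such as Fiz1 at Zfp524, Ccdc106 at Zfp865, Dedd2 at Zfp526 and Tubgcp2 at Zfp511.

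Genes with and without a KRAB pattern both had sites. From the translated coding sequences, 90 of the 91 proteins had at least 1 C2H2 finger, with a median of 12 and a maximum of 33 in Zfp619. A strict KRAB pattern was matched by 29 proteins, of whose genes 19 had a site (65.5%). This pattern misses known KRAB proteins such as Zfp568, so the other genes are not a group without KRAB and are not compared with them. A wider pattern, chosen after the translated sequences were seen, was matched by 54, of whose genes 30 had a site (55.6%) with a median lower fold of 8.80. The 37 without it had 28 sites (75.7%) with a median of 12.6. Zfp607b matches the wider pattern and Zfp607a does not, so the 37 may also hold KRAB proteins. The share with a peak in either replicate was 90.7% with the wider pattern and 86.5% without. Of the 13 genes under 80% unique at the start, of which 1 had a site, all but Zfp626 match the wider pattern. The difference in sites was not tested.

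Away from the starts these genes were nearly free of peaks. A reproducible site in the gene body, at least 1 kb from any start of the gene, was present in 1 of the 91, where 7.48% of all genes had one. A body peak in both replicates before any filter was present in 1 (1.10%), where 17.9% of all genes had one. Zfp genes of the other chromosomes had a body site in 8 of 302 cases and body peaks in both replicates in 29 (9.60%). Among the other genes of chromosome 7, 94 of 1932 had a body site (4.87%) and 218 had body peaks in both replicates (11.3%). The median gene length was 13240 bp in the 91 genes, 11029 bp in the other genes of chromosome 7, 17425 bp over all genes and 19852 bp over the Zfp genes elsewhere.

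Peaks with the summit in the last exon were rare in these genes. In 80 of the 91 genes every finger is coded by the last exon, and in 7 none is (Zfp865, Zfp541, Zfp710, Zfp143, Zfp646, Zfp511 and Zfp941). A peak in both replicates with its summit in the last exon, away from starts, was present in 1 of the 91, Zfp771 (1.10%), where 1.04% of all genes had one, so the share in both replicates was near the background. Among the Zfp genes elsewhere, 2 of 302 had a last exon peak of this kind in both replicates (0.662%). No other of the 91 had a last exon peak of this kind in either replicate, where 3.57% of all genes and 2.65% of the Zfp genes elsewhere had one. Promoter peaks reached the coding part of the last exon in 2 genes in replicate 1, Zfp36 and Zfp768, and in Zfp36 alone in replicate 2. The coding part of the last exon had a median of 99.8% of 32-mers that occur once, over the 90 genes with such a part, and 75 of the 90 stood at 80% or above.

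Zfp771, with 8 fingers all coded by its last exon, was the exception. Besides its promoter site (14.1 and 18.4), it had a second site over the last exon. The replicate 1 peak, chr7:127252372-127255203, had a fold of 7.95 (4.82 to 12.5, 17 fragments), and the replicate 2 peak, chr7:127252222-127256063, had 10.8 (7.52 to 15.2, 32 fragments). The summits lay 9205 and 9236 bp from the nearest start. The coding part of this exon, chr7:127253805-127254614, had a GC content of 71.7% and a ratio of observed to expected CpG of 1.25, both the highest of the 90, beside medians of 49.8% and 0.402. Control replicates had no peak there.

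The other body peaks were found in 1 replicate each. Zfp60 had one in replicate 1 (fold 4.42, on 9 fragments), and Zfp710 (3.94, 2.13 to 6.79) and Zfp592 (3.61, 1.90 to 6.37) had one in replicate 2. Zfp78 had one in replicate 2 at its far end, chr7:6382404-6383949, with a fold of 8.21, and this is the peak that was counted at the start of the neighbouring Zfp28. None had its summit in a last exon.

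Beyond ZNF143, the promoter windows of the 83 genes with RefSeq sequence held other motif letters in varying shares, each searched on both strands. The ETS letters CCGGAAG were present in 21 (25.3%), where 13.4% of all genes had them. NRF1 letters (GCGCA directly followed by its reverse complement, TGCGC) were present in 6 (7.23%), where 1.53% of all genes had them. YY1 letters (AAGATGG) were present in 6 (7.23%, all genes 7.26%), NF-Y letters (CCAAT) in 36 (43.4%, all genes 42.1%), SP letters (GGGCGG) in 33 (39.8%, all genes 51.0%) and the CRE (TGACGTCA) in 1 (1.20%, all genes 2.64%). The 83 genes had 1.11 windows on average, all genes 1.22 and the Zfp genes of other chromosomes 1.25. In the last of these sets the ETS letters were present in 21.6%, the NRF1 letters in 2.49% and the YY1 letters in 9.54%. The NF-Y letters were present there in 53.9%, the SP letters in 49.4% and the CRE in 4.98%.

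The ZNF143 letters were present in 16 of 52 genes with a site (30.8%), in 8 of 31 without (25.8%) and in 0 of the 9 without any peak. The ETS letters were present in 16 of the 52 with a site (30.8%) and in 5 of the 31 without (16.1%), the YY1 letters in 6 and 0, the NRF1 letters in 4 and 2, and the CRE in 1 and 0. The SP letters were present in 24 of the 52 with a site and 9 of the 31 without, and the NF-Y letters in 21 of the 52 and 15 of the 31. Among the 9 without any peak, the ETS letters were present in 2, the NF-Y letters in 7 and the SP letters in 1. The YY1, NRF1 and CRE letters, like those of ZNF143, were present in 0 of the 9. Genes with a site had 1.15 windows on average and those without 1.03. Among genes with a site, the median lower fold was 11.4 with the ZNF143 letters and 9.72 without. For the ETS letters it was 7.29 with and 11.7 without, and for the YY1 letters 16.0 with, over 6 genes, and 9.94 without. The 24 genes held 27 such stretches, of which 22 lay inside a promoter peak, at a median of 220 bp from the summit in replicate 1, over 20 stretches with a peak there, and 215 bp in replicate 2, over 22. Next to the searched letters the bases were alike too. Of 26 stretches with full flanks, 25 had C and 25 had A as the first and second base after the motif. Stretches in duplicated genes can descend from 1 ancestor.

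The GC content of the windows had a median of 54.7%, beside 57% over all genes. It was 56.5% in the genes with a site, 51.3% in those without and 54% in those without any peak. The ratio of observed to expected CpG had a median of 0.722 in the genes with a site, 0.488 in those without and 0.310 in those without any peak, beside 0.586 over all genes. The windows of Zfp819 (1.05) and Zfp296 (0.661), neither with a peak, stood above the median of all genes. The CpG ratio thus moved with the presence of a site, while GC content was not lowest in the genes without any peak. The part of base composition in the presence of a site was not tested.

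The partners through which KRAB proteins silence DNA were also covered, as a list of 15 genes on several chromosomes. A promoter site was present at 14 of the 15 (93.3%), where 39.4% of all genes had one, and all 15 had a promoter peak in both replicates. The lower fold of the 14 ran from 7.51 to 70.7 with a median of 10.7, beside 10.2 over all genes with a site. On chromosome 7, Trim28, the corepressor itself, had folds of 23.4 and 24.0, at the level of Zfp27. Cbx5, an HP1 gene, had 70.7 and 99.2, at a site shared with Hnrnpa1, and Cbx3, another HP1 gene, had 34.9 and 40.1, at a site shared with Hnrnpa2b1. Cbx1, also an HP1 gene, had 9.72 and 10.2. Atf7ip, a cofactor of SETDB1, had 31.4 and 40.7. Setdb1 had 7.51 and 7.88. Atrx, a remodeller on the X chromosome, had 7.07 and 5.91 and therefore no site. None had a control peak.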

How the data were processed

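Foxr2 was mapped by CUT&RUN with a V5 antibody in 2 Foxr2 p53LOF and 2 V5 control libraries, grouped by the sample labels. The authors trimmed reads with Trimmomatic 0.39, aligned them to mm10 with BWA 0.7.17, removed duplicates with Picard 2.26.6 and called peaks per library with MACS2 2.2.7.1, with no input library named. The deposited fold of a peak is a ratio, summit fragments plus 1 over background plus 1. The deposited −log10 p-value and −log10 q-value come from the authors' MACS2 runs within each library. The deposited score is a scaled −log10 q and was not used. Depth is not in the peak lists, so precision comes from the summit fragments, recovered with the background of each library (1.26, 2.04, 1.69 and 0.643 fragments). Duplicates were removed without molecular identifiers.

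The study's filters on single peaks were applied here, without its later intersection with snATAC-seq peaks, which were not used: Foxr2 p53LOF peaks were kept if their −log10 q and their fold both exceeded 6, they were shorter than 10000 bp and no control peak overlapped them by 10 bp or more. Sites are stretches covered by kept peaks of both replicates. Genes and starts are from GENCODE M21 on GRCm38.p6, the build of mm10, and positions count from 1. Fingers and KRAB patterns were counted in GENCODE coding sequences translated with Biopython 1.88, in place of RefSeq proteins. Promoter windows are from RefSeq. Counts used Python 3.11.15, pandas 2.3.3, numpy 2.4.6 and scipy 1.17.1. The steps were tested on simulated data. The genes and lists were chosen with earlier results of these data known. Genes are named where they have the 10 highest lower folds, lie next to the minimum fold, have a last exon or body site, or have a known role, and genes without a site are listed. Others are named as examples chosen after their values were seen.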

Additional observations from a re-analysis of the deposited data

How the results depend on the processing

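The counts of the 91 genes with a promoter site, a promoter peak in both replicates, a body site or a last exon peak, and the median lower fold, were recomputed under other settings of the filters, the promoter window, the starts used and the overlap. A minimum fold of 10 gave 31 genes with a site (all genes 19.8%), 0 with a body site (all genes 2.70%) and a median fold of 13.7, as over all genes, and no minimum on fold gave a median of 9.72 (all genes 9.53). Leaving out each replicate in turn gave 58 to 68 genes with a promoter site (all genes 39.4% to 43.7%), 1 to 2 with a body site (all genes 7.48% to 10.4%), a median fold of 10.8 to 11.8, 73 to 80 with a promoter peak in the remaining Foxr2 p53LOF replicate (all genes 53.5% to 54.4%), and 1 with a last exon peak (all genes 1.94% to 2.68%). The higher body count came without Foxr2 p53LOF replicate 1, through the Zfp78 peak at the start of Zfp28. In all, 48 values from planned settings, and 3 added after the data were seen (genes with at least 80% of unique 32-mers, a minimum fold of 5, distinct sites), stayed within 1.5 times the count or within the spread between replicates. With a replicate block, the difference in genes with a promoter peak per library was again 76.5, with an exact p of 0.5, the smallest for 2 pairs. Whether equal replicate numbers pair the samples could not be checked, since the control libraries have no peak at these genes. Peaks of under 13 fragments in replicate 1 or 18 in replicate 2 can be called but cannot pass the minimum fold.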
